A study of Mus musculus with 4 samples.

Results

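The TNF receptor superfamily genes (Tnfrsf with a number), the genes of their ligands (Tnfsf with a number) and the TRAF genes (Traf with a number) were described in a map of KAP1 on the chromatin of mouse regulatory T cells. All protein-coding genes on chromosomes 1 to 19 whose symbol follows this pattern in the RefSeq gene table of GRCm38.p6 were taken, which gave 41 of 20665 coding genes. They are 20 receptor genes, 11 ligand genes, 7 TRAF genes and 3 genes that carry TRAF3 in their symbol because their proteins bind it, Traf3ip1, Traf3ip2 and Traf3ip3. The rule used names and not KAP1 values, but the genes were taken up with earlier results of these data known.

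KAP1, the product of Trim28, is a corepressor of transcription that is recruited to DNA by KRAB zinc finger proteins. The series holds 2 samples of chromatin immunoprecipitated with a KAP1 antibody (Active Motif) and 2 input samples without antibody, all from regulatory T cells of C57BL/6 mouse spleen, sorted and then cultured for 2 weeks. No genotype, treatment or age is stated, whether the replicates are separate animals or cultures is not in the labels, and the inputs were not analysed here. Each KAP1 sample has its own list of peak summits, 8862 in replicate 1 and 79515 in replicate 2, on mm10. Read depth is unknown for both lists. A summit carries the authors' score, a p-value or q-value as −log10, which was used only to describe and rank summits within a list. A summit of replicate 1 with a summit of replicate 2 within 200 bp is called shared, and its position is that of replicate 1.

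Receptors of this superfamily mostly bind trimeric ligands. They have no enzyme activity of their own, and many recruit TRAF adaptors, which lead to the NF-kappaB and MAP kinase pathways, while the death receptors recruit adaptors that can start apoptosis. Regulatory T cells are known for high surface levels of several of these receptors, among them GITR (Tnfrsf18), OX40 (Tnfrsf4), TNFR2 (Tnfrsf1b) and, after activation, 4-1BB (Tnfrsf9). Summits show where KAP1 was found and do not measure expression. Set beside the cell label, a shared summit lay in or within 20 kb of 8 of 8 regulatory T cell marker genes, 2 of 6 B cell markers, 3 of 6 myeloid markers and 1 of 4 erythroid markers, where the share of all coding genes was 34.3%. These lists are short, and within 20 kb only the first stands well apart from that share. In bodies its share was 12.5%, against 12.9% of coding genes, and at ends 37.5%, against 8.94%. It includes Cd3e, Cd3d, Cd3g and Cd4, which mark T cells in general, and windows of close genes can hold the same summit. The counts thus cannot tell regulatory T cells from other T cells.

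A listed promoter held a shared summit in 2 of the 33 genes that have one, Traf3ip3 and Traf1. By promoter it was 2 of 37, against 2.96% of the promoters of coding genes, and so few give no rate. These 2 are shown because bases were at hand for listed promoters only. Stronger shared summits, such as that in the body of Tnfrsf1b, lay outside them. The sequences come from the RefSeq promoter table of GRCm38.p6, which lists a start for 33 of the 41 genes. Each is written 5′ to 3′ on the minus strand, up to the last base outside the gene. Capitals mark the 21 bases centred on the replicate 1 summit.
Traf3ip3, chr1:193201547-193201796: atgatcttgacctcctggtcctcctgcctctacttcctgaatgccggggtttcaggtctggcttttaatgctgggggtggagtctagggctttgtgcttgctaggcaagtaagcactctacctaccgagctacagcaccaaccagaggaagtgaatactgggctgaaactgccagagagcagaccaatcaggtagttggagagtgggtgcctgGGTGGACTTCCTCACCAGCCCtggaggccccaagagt
Traf1, chr2:34961813-34962022: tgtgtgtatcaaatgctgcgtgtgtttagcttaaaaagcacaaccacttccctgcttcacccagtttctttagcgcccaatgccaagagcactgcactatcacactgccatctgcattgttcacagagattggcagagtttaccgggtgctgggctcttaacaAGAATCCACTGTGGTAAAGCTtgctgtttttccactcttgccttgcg

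The Traf1 stretch of 210 bases had a GC content of 47.6% and held 4 CpG dinucleotides, against medians of 55.2% and 7 in the same stretch of 20085 listed promoters of coding genes. The Traf3ip3 stretch of 250 bases had a GC content of 55.2% with 2 CpG, against medians of 56.0% and 10. As short motifs, 7 were searched on both strands, namely NF-kappaB (GGGNTTTCC), AP-1 (TGANTCA), ETS (CCGGAAG), the GC box (GGGCGG), CRE (TGACGTCA), RUNX (TGTGGT) and the CCAAT box (CCAAT). No 2 matches overlapped. In Traf1 the RUNX letters lay under the summit, at letters 173 to 178 with the summit at letter 174. They occur in 10.6% of promoter stretches of that length. The CCAAT letters occurred 2 times in Traf1, 95 and 43 bp from the summit, and 1 time in Traf3ip3, 38 bp from it, and they occur in 31.3% and 35.3% of stretches of those lengths. The other motif letters were not in these windows. A match is a run of letters and does not show that a factor binds.

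With all summits of both lists, shared KAP1 summits were found at a larger share of the 41 genes than of all coding genes at ends and within 20 kb. The body shares were nearer to each other in this setting, but not with replicate 2 reduced. A gene end was taken as 1 kb to either side of the lowest or highest coordinate, and the body as the rest of the gene. A shared summit lay at an end of 7 of 41 genes (17.1%), against 8.94% of all coding genes. In the body, 7 of 41 genes (17.1%) had a shared summit, against 12.9% of coding genes with a body. In the gene or within 20 kb, it was 21 of 41 (51.2%), against 34.3%. With replicate 2 reduced to its 8862 highest scores, the end count was 2 of 41 (4.88%, against 4.02% of coding genes), so that the larger share at ends was lost. The body count was then 5 of 41 (12.2%, against 6.37%), and the count within 20 kb was 9 of 41 (22.0%, against 18.7%). With ends of 500 bp the end count was 4 of 41 (9.76%, against 6.18%). With scores at or above the median of each list, the end count was 6 of 41 (14.6%, against 5.21%). In that setting the body count was 5 of 41 (12.2%, against 8.04%) and the count within 20 kb was 12 of 41 (29.3%, against 23.0%). The median number of shared summits within 20 kb was 1 for these genes and 0 for all coding genes. With 2 samples of 1 group there is no test between conditions, and the shares are set side by side as a description.

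**Figure D1:**
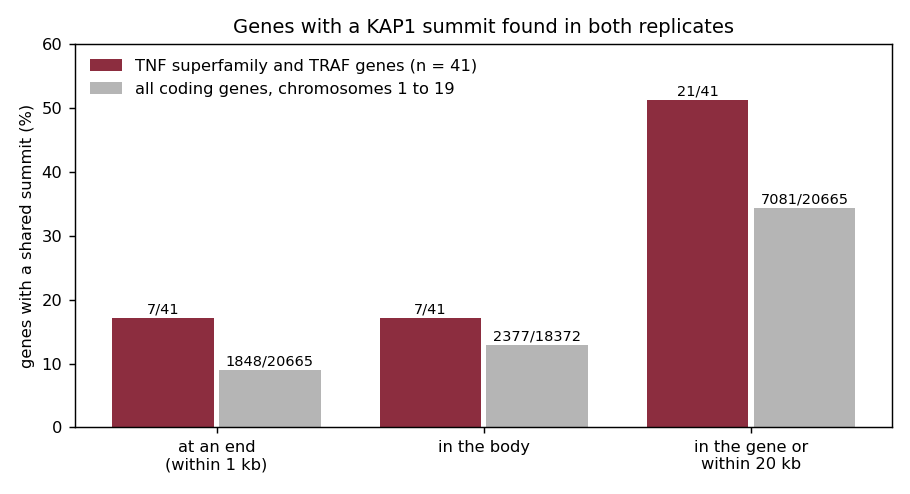
Share of genes (%) with a KAP1 summit found in both replicates at a gene end, in the gene body, and in the gene or within 20 kb, for the 41 TNF superfamily and TRAF genes (dark bars) and for all coding genes on chromosomes 1 to 19 (grey bars). Numbers above the bars are genes with a summit over genes counted; the dark bars reach 17.1%, 17.1% and 51.2%, against 8.94%, 12.9% and 34.3% for the grey bars.

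The shares differed between classes of gene length. Of the 19 genes from 20 to 50 kb long, 5 had a shared end summit and 6 a shared body summit, where coding genes of that length had them in 10.6% and 14.3% of cases. Of the 9 genes from 5 to 20 kb, none had either, against 10.9% and 6.75% of coding genes of that length. The 8 genes under 5 kb had 1 with an end summit (4.46% of such coding genes) and the 5 of at least 50 kb had 1 with both (8.85% at ends and 25.8% in bodies). Within 20 kb, the classes from short to long had 5 of 8 genes (20.3% of coding genes), 3 of 9 (37.2%), 11 of 19 (38.4%) and 2 of 5 (39.5%). Over all bodies, there were 1.19 shared summits per 100 kb in these genes and 0.355 in coding genes, and 4 of the 12 member summits lay in Tnfrsf9 alone. This density pools the bodies, so that long genes weigh most, and it was not matched for gene length. The share of genes with a shared body summit was 17.1%, against 12.9% of coding genes.

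In each list taken alone the picture was unequal. Replicate 1 had a summit at an end of 7 of 41 genes (17.1%, against 9.84% of coding genes), in the body of 9 (22.0%, against 13.8%) and within 20 kb of 23 (56.1%, against 35.9%). The longer list of replicate 2 had a summit at an end of 11 genes (26.8%, against 23.2%) and within 20 kb of 40 (97.6%, against 84.3%). In replicate 2 the body share was 63.4%, against 56.4%. The mean number of its body summits, not adjusted for body length, was 1.17 for these genes and 2.04 for all coding genes with a body. Per 100 kb of body the order was the other way, with 4.76 replicate 2 summits in these genes and 3.88 in coding genes. This density was also pooled over bodies and not matched for gene length. The end share in replicate 2 was thus near that of all coding genes.

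In all, 38 different shared summits lay in or within 20 kb of the 41 genes, 7 at ends, 12 in bodies and 19 outside. The paired positions were a median of 6.5 bp apart and at most 97 bp. For 9 of the 38 the nearest coding gene was none of the 41. The scores of the 38 ran from 1.48 to 31.0 in replicate 1, with a median of 7.14, and from 3.78 to 42.9 in replicate 2, with a median of 10.2. These medians lay below those of all 7720 shared summits, 8.34 in replicate 1 and 12.4 in replicate 2.

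**Figure D2:**
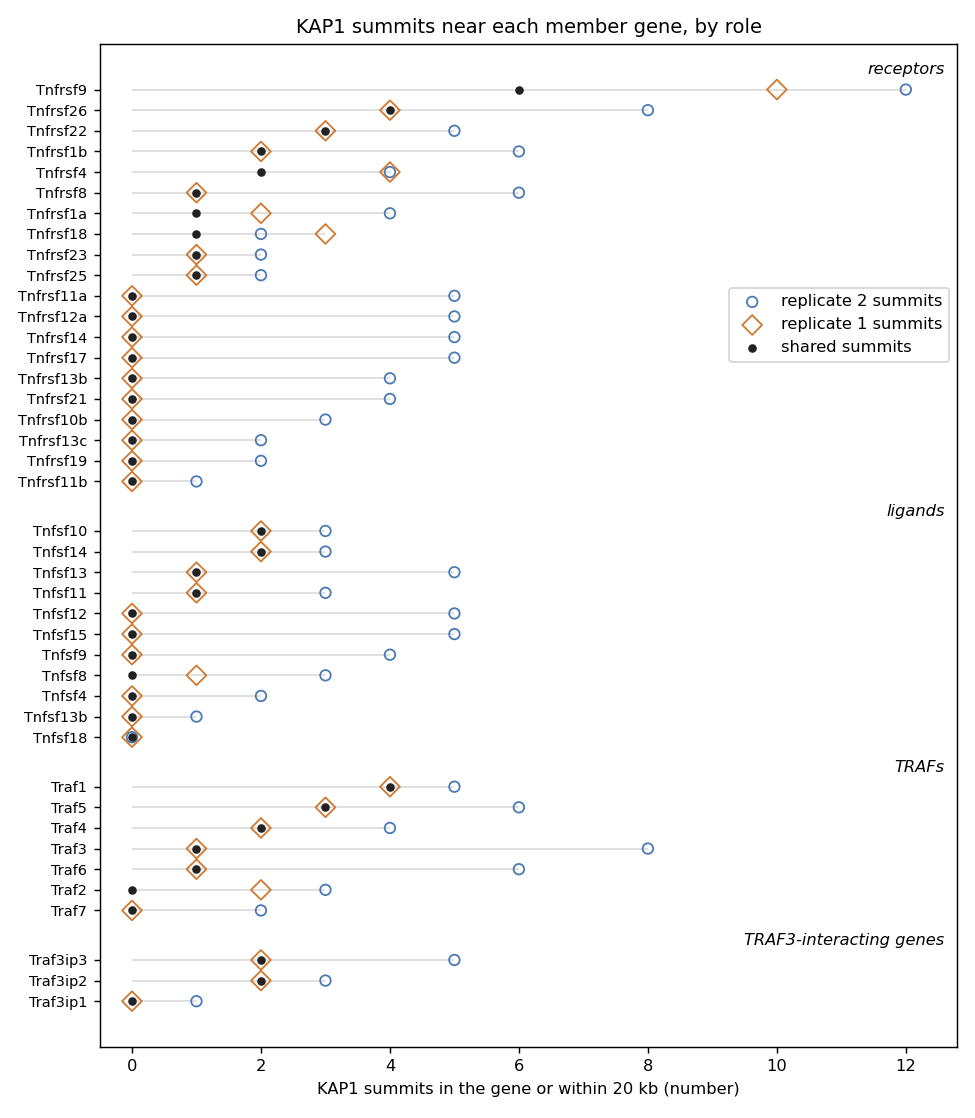
Number of KAP1 summits in each of the 41 genes or within 20 kb of it, by role (receptors, ligands, TRAFs, TRAF3-interacting genes). Diamonds stand for replicate 1, open circles for replicate 2 and black dots for shared summits; Tnfrsf9 lies farthest right with 10, 12 and 6, and 20 genes have no shared summit.

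Among the receptors, 10 of 20 had a shared summit within 20 kb, 2 at an end and 3 in the body. For all coding genes the shares were 34.3%, 8.94% and 12.9%, so the counts at ends and in bodies were near the background. Tnfrsf9 encodes 4-1BB, a costimulatory receptor that appears on activated T cells, and lies at positions 150920155 to 150946104 of chromosome 4. It had 10 summits of replicate 1 and 12 of replicate 2 within 20 kb, of which 6 were shared. None lay at an end, 4 lay in the body, 1 lay 2638 bp before the lower end and 1 lay 18863 bp after the higher end. The table lists starts of Tnfrsf9 transcripts at its lower end and 1 further inside the gene.

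The summit 2638 bp upstream of the gene had the highest scores of the 6, 25.4 in replicate 1 and 41.8 in replicate 2. Inside, the summit at position 150924190, 4035 bp from the lower end, scored 22.7 and 32.5. The summit at 150927107 scored 14.4 and 13.7 and lay 892 bp upstream of the inner start. The summit at 150925263 was uneven, with a score of 10.7 in replicate 1 and 3.78 in replicate 2, which placed it at the 70.1st and the 0.721st percentile. The summit at 150937321 scored 6.64 and 17.1, and the outer summit at 150964967 scored 5.10 and 11.1. The first 5 of the 6 shared summits spanned 19.8 kb.

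No other coding gene of this length or shorter had as many shared body summits. There were 90 coding genes with 4 or more shared body summits (0.490% of those with a body), 9 of them on chromosome 4. Of 10332 coding genes with a body and no longer than Tnfrsf9, Tnfrsf9 was the only 1 with 4. Its 16.7 shared body summits per 100 kb were followed on chromosome 4, among genes with 4 or more, by Smap2 with 8.52, Pik3cd with 7.78 and Coro2a with 6.35. Within 20 kb, 58 coding genes (0.281%) had as many shared summits as Tnfrsf9 or more. Tnfrsf9 was singled out because earlier results of these data had shown its body summits, so these ranks describe it and test nothing. Replicate 1 had 4 further summits 4612 to 11505 bp before the lower end, with scores of 2.31 to 5.10 and no replicate 2 partner. Those at 150908650, 150910363 and 150914381 had Park7 as the nearest coding gene, and the first lay inside it. With scores at or above the median of each list, 3 of the 6 were left, at 150917517, 150924190 and 150927107. With replicate 2 reduced to its 8862 highest scores, 3 were also left, the first 2 of these and 150937321.

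**Figure D3:**
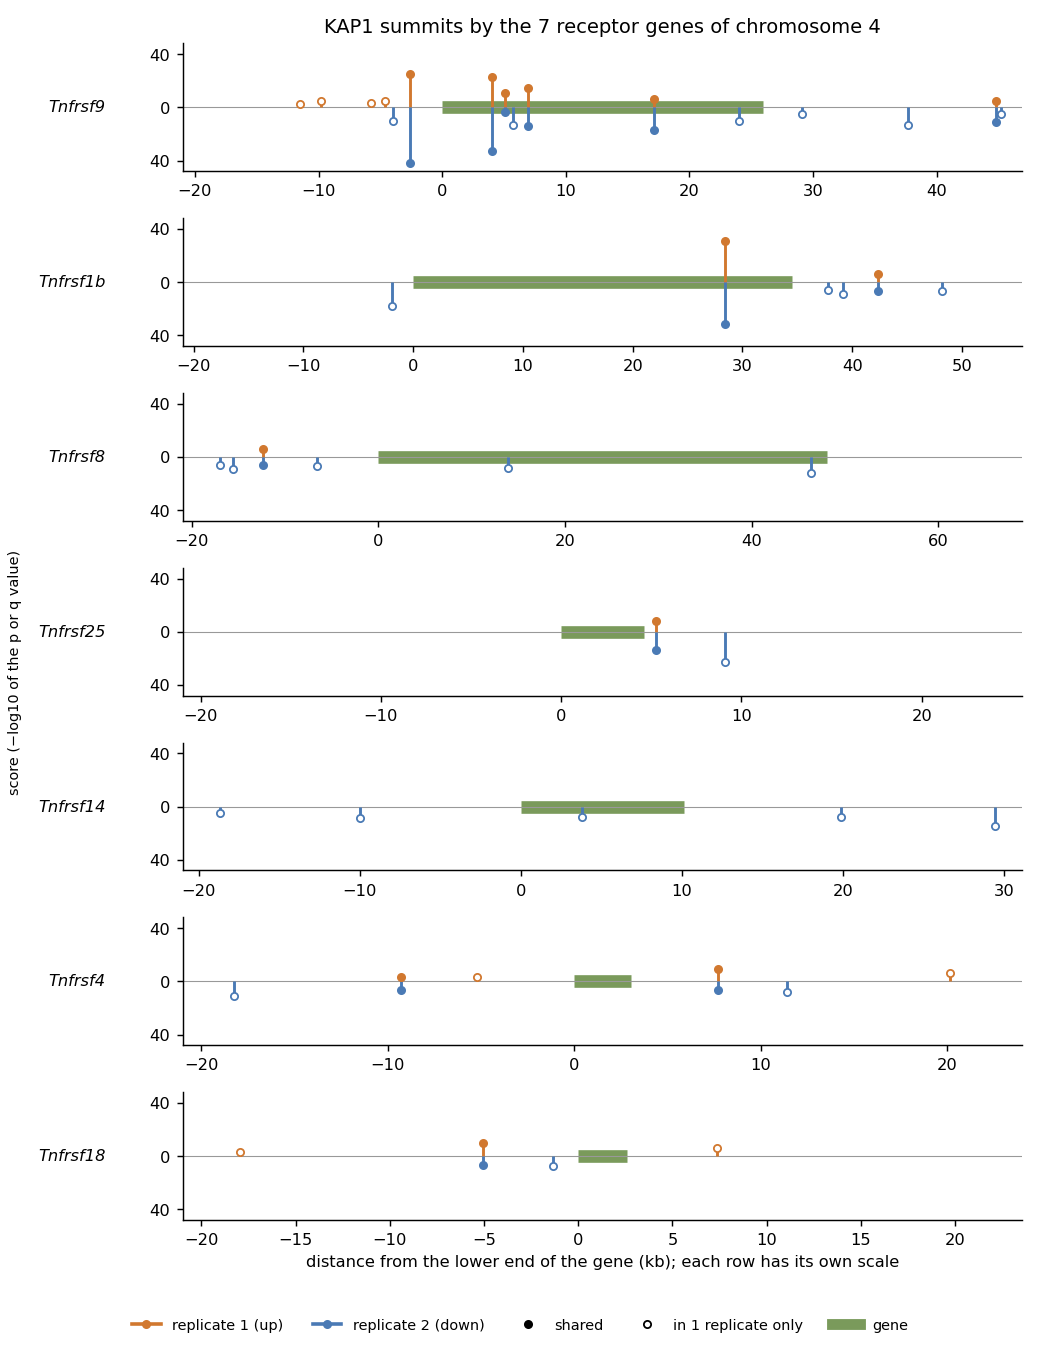
KAP1 summits by the 7 receptor genes of chromosome 4, by distance from the lower end of each gene (kb), with the score (−log10 of the p or q value) of replicate 1 drawn upward and of replicate 2 downward. Filled heads are shared summits and open heads were found in 1 replicate; green bars are the genes. Tnfrsf9 has 6 shared summits, while Tnfrsf14 has 0 and Tnfrsf25, Tnfrsf8 and Tnfrsf18 have 1 each.

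The other 6 receptor genes of chromosome 4 are spread, with Tnfrsf9, over 10.8 Mb and are neighbours only as pairs, Tnfrsf1b with Tnfrsf8 (20.3 kb apart) and Tnfrsf4 with Tnfrsf18 (9.71 kb apart). Without Tnfrsf9 they had 5 shared summits within 20 kb, from 7 of replicate 1 and 19 of replicate 2. Tnfrsf1b encodes TNFR2, the TNF receptor that is prominent on regulatory T cells. Its body summit at position 145240805, 6065 bp downstream of the listed start, scored 31.0 in replicate 1 and 31.1 in replicate 2, the highest replicate 1 score of the 38. A weaker shared summit at 145254743 (6.16 and 6.42) lay 7873 bp upstream of Tnfrsf1b and 12389 bp from Tnfrsf8, the gene of CD30, and was the only shared summit near Tnfrsf8.

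Tnfrsf25 encodes DR3, the receptor for TL1A. Its end summit at position 152120809 (8.34 and 13.4) lay 690 bp past the higher end, which is the end away from its listed starts, and inside the neighbouring gene Espn. In Tnfrsf4, the OX40 gene, and Tnfrsf18, the GITR gene, neither replicate had a summit at the ends or in the body. Between them lay a shared summit at 156021273 (9.50 and 6.31), 4660 bp from Tnfrsf4 and 5049 bp from Tnfrsf18. Another by Tnfrsf4, at 156004315 (3.21 and 6.68), lay inside Sdf4. Tnfrsf14, the gene of the LIGHT receptor HVEM, had no replicate 1 summit and 5 of replicate 2, and its nearest shared summit was 54099 bp away.

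A second dense stretch was found on chromosome 7, at the mouse genes Tnfrsf26, Tnfrsf22 and Tnfrsf23. Tnfrsf22 and Tnfrsf23 encode decoy receptors for TRAIL, which bind it without a death domain. Tnfrsf26 had a shared summit at position 143628009, 164 bp outside its higher end, with scores of 28.1 and 39.7, the highest of the 7 end summits in both replicates. A body summit at 143626285 scored 14.4 and 33.0, a second at 143612391 scored 6.16 and 8.15, and a summit at 143629709, outside the gene, scored 6.64 and 18.1. Tnfrsf22 had no summit at an end or in its body and shares 3 of these 4 summits within 20 kb. Tnfrsf23 had 1 shared summit, 9870 bp from its higher end and inside Osbpl5 (9.50 and 17.8). Tnfrsf1a, the gene of the death domain receptor TNFR1 on chromosome 6, had 1 shared summit 10254 bp before its start and inside Scnn1a (5.10 and 8.12).

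The other 10 receptor genes had no shared summit within 20 kb. Besides Tnfrsf14 they were Tnfrsf10b, a TRAIL death receptor gene, Tnfrsf11a and Tnfrsf11b, the genes of the RANKL receptor and its soluble decoy, the B lineage receptor genes Tnfrsf13b, Tnfrsf13c and Tnfrsf17, and Tnfrsf12a, Tnfrsf19 and Tnfrsf21. None had a replicate 1 summit, and each had 1 to 5 replicate 2 summits. Tnfrsf10b and Tnfrsf13b were just outside the window, with the nearest shared summit at 21258 and 22344 bp, and at 578127 bp for Tnfrsf21 and 1134951 bp for Tnfrsf11b it was far off. Tnfrsf17 had a replicate 2 summit at an end (score 7.21). In the bodies, the highest replicate 2 scores were 13.6 in Tnfrsf13b, 11.5 in Tnfrsf10b, 9.26 in Tnfrsf11b and 8.94 in Tnfrsf21.

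Of the 11 ligand genes, none had a shared summit at an end, 2 had any in the body (18.2%, against 12.9% of coding genes) and 4 had any within 20 kb (36.4%, against 34.3%). At the background of 8.94% for ends, a count of 0 in so few genes is no result. Tnfsf10, the TRAIL gene, had 2 in its body. At 27338554 of chromosome 3, within the gene and 1111 bp from the end away from its start, a summit scored 10.3 in replicate 1 and 42.9 in replicate 2, the highest replicate 2 score of the 38. The other, at 27330927, was weak in both (1.48 and 6.37). Tnfsf11, the RANKL gene on chromosome 14, had a summit at 78307003, 1040 bp downstream of its start, with scores of 19.8 and 22.1. These summits of Tnfsf11 and Tnfsf10 were just outside the 1 kb that counts as an end. Tnfsf14, the gene of LIGHT, had 2 shared summits below its lower end, at 1129 bp (3.45 and 9.33) and 8946 bp (4.17 and 6.50). The summit counted for Tnfsf13, the APRIL gene, lay 19864 bp away and 64 bp upstream of Mpdu1 (3.69 and 7.40).

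The other 7 ligand genes had no shared summit. Tnfsf18, the gene of the GITR ligand, had no summit of either replicate within 20 kb and was alone in this among the 41. Tnfsf8, the CD30 ligand gene, had a replicate 1 body summit (score 7.25) with no replicate 2 partner. The OX40 ligand gene Tnfsf4 had an end summit in replicate 2 only, 198 bp outside its lower end (9.75). The TL1A gene Tnfsf15 had a replicate 2 summit 246 bp upstream of its start that scored 16.9, the highest replicate 2 score at an end or in the body of the genes without a shared summit. The 4-1BB ligand gene Tnfsf9 had 4 replicate 2 summits nearby and none in the gene. Tnfsf12, the TWEAK gene, and Tnfsf13b, the BAFF gene, had body summits in replicate 2 only (9.26 and 9.88).

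**Figure D4:**
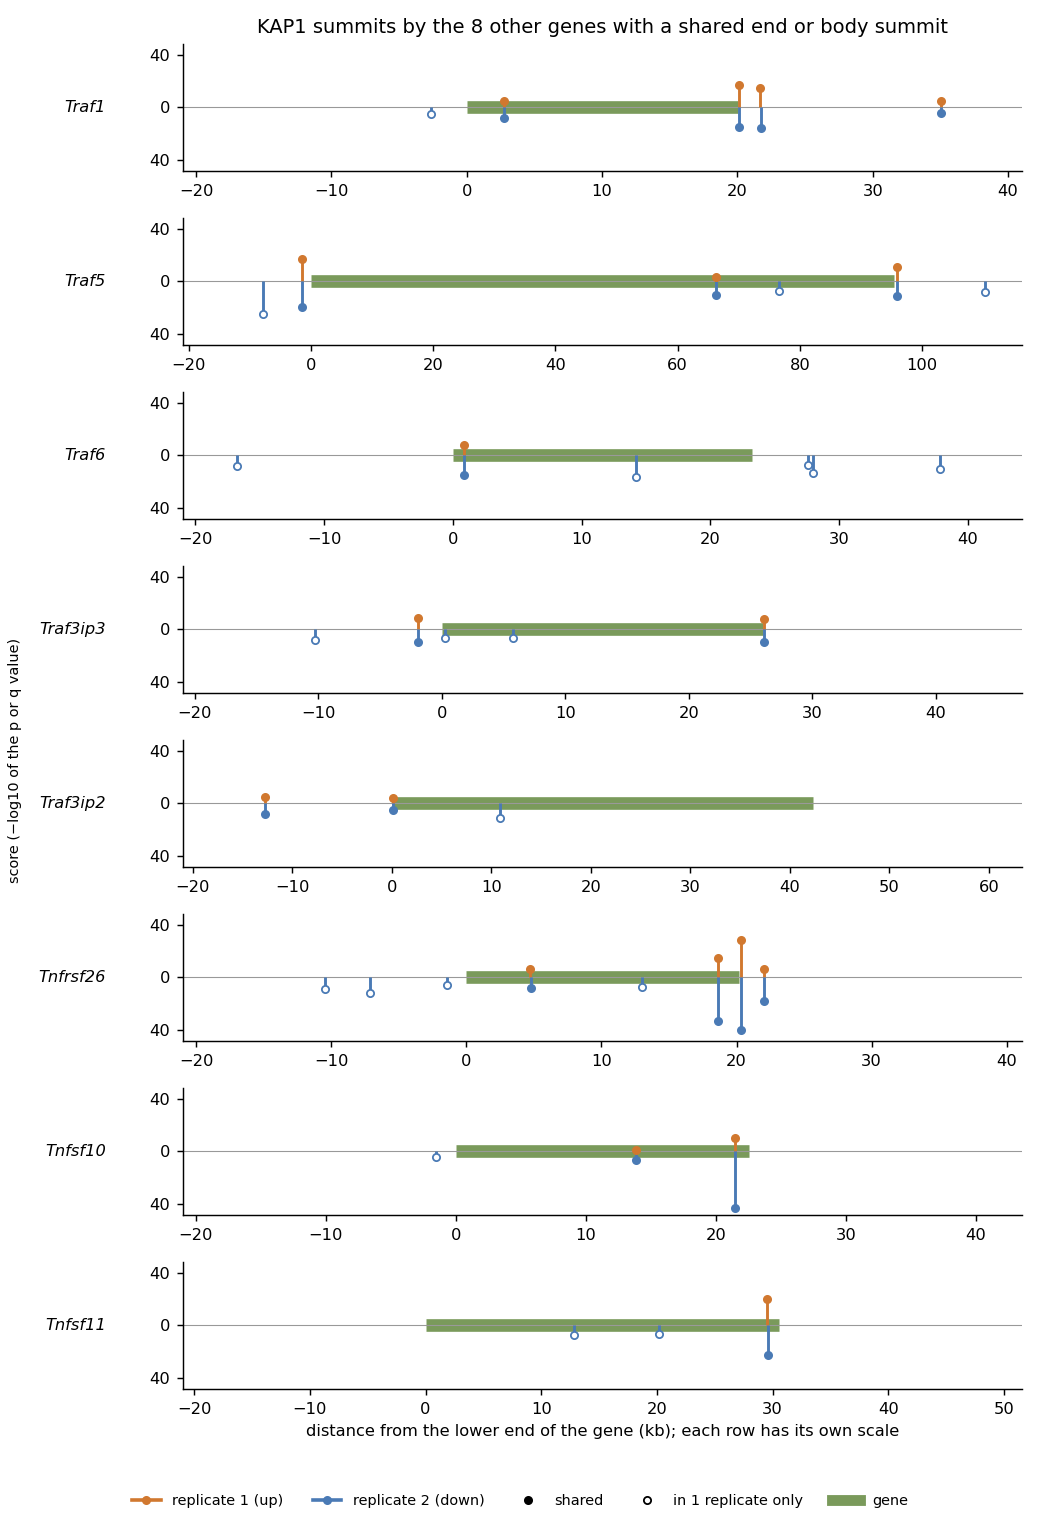
KAP1 summits by the 8 other genes with a shared summit at an end or in the body, by distance from the lower end of each gene (kb), with scores (−log10 of the p or q value) of replicate 1 upward and of replicate 2 downward, filled where shared and open where found in 1 replicate. The summits of Traf1, Traf5, Traf3ip3 and Tnfrsf26 at their higher ends are filled in both directions, and the Tnfsf10 summit near its higher end reaches 42.9 in replicate 2.

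Of the 7 TRAF genes, 3 had a shared summit at an end (Traf1, Traf5 and Traf6), 2 in the body and 5 within 20 kb. The shares of coding genes were 8.94%, 12.9% and 34.3%, but counts among so few genes give no rate. With replicate 2 reduced to the number of replicate 1, only 2 of the 41 genes kept a shared end summit. They were Tnfrsf26 and Traf1, whose end summits had the highest replicate 2 scores (39.7 and 15.0). Those of Traf6 (14.5) and Traf5 (10.9) were lost. With scores at or above the median of each list, 6 of the 41 were left, these 3 TRAF genes among them. Traf1 encodes an adaptor that works with TRAF2 at 4-1BB and other receptors and lacks a RING domain. It had 4 shared summits, the most of the TRAF genes. The promoter summit at position 34961849 of chromosome 2, whose sequence is given above, lay 77 bp upstream of the listed start and scored 17.0 in replicate 1 and 15.0 in replicate 2. A second, at 34963440, lay 1668 bp upstream with much the same scores (14.4 and 15.3). The body summit at 34944478 (4.61 and 7.89) and the summit 14955 bp above the gene (5.10 and 4.45) were weaker.

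Traf5, an adaptor gene of OX40 and other receptors, had 3 shared summits on chromosome 1. They lay 520 bp upstream of its start at 192093119 (10.7 and 10.9), in the body at 192063452 (3.45 and 10.5) and 1436 bp past its other end at 191995767 (17.0 and 19.4). Traf6, an adaptor gene of CD40 and of interleukin-1 and Toll-like receptors, had 1 shared summit, 869 bp downstream of its start at 101679289 of chromosome 2 (7.64 and 14.5). Of the end summits it was the farthest from its end, with Tnfsf11 next beyond the limit. Traf4 had 2 shared summits, 4127 and 6128 bp from its higher end, both inside Nek8 (5.10 and 9.51, 6.16 and 8.43). Traf3, a brake on the alternative NF-kappaB pathway, had 1, 6464 bp upstream of its start (4.61 and 4.24), and 4 body summits in replicate 2 alone. Near Traf2, whose protein brings ubiquitin ligases to many of these receptors, the replicates placed summits apart, with a replicate 1 body summit 968 bp from that of replicate 2 (4.17 and 5.01). Traf7 had 2 summits, both of replicate 2, the stronger of them in the body (11.0).

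Of the 3 genes of TRAF3-binding proteins, 2 had a shared end summit, where the share of coding genes was 8.94%. So few genes give no rate. Traf3ip3 had the summit 27 bp upstream of its start that is shown above, at 193201573 of chromosome 1 (7.64 and 9.39), and another 1899 bp past its other end that lay 28 bp downstream of the listed start of A130010J15Rik (8.34 and 9.77). Traf3ip2 encodes Act1, the adaptor of interleukin-17 receptors. Its summit at 39613091 of chromosome 10, 157 bp inside its lower end, was the weakest end summit in both lists (4.17 and 4.65), and a second lay 12694 bp below the gene (5.10 and 7.89). Traf3ip1 encodes a protein of transport in cilia and had only a replicate 2 summit in its body (8.12). Without these 3 genes, the 20 receptor, 11 ligand and 7 TRAF genes were left. Of these, 5 had a shared end summit and 19 had any within 20 kb, where the shares of coding genes were 8.94% and 34.3%.

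Where the strand is listed, 4 of 33 genes (12.1%) had a shared summit at the end with the start and 1 (3.03%) at the other end. For all coding genes with a listed strand the shares were 7.80% and 1.31%. In the listed promoter window itself, from 250 bases before to 50 after a start, 2 of 37 promoters of these genes held a shared summit, against 2.96% of the promoters of coding genes.

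**Figure D5:**
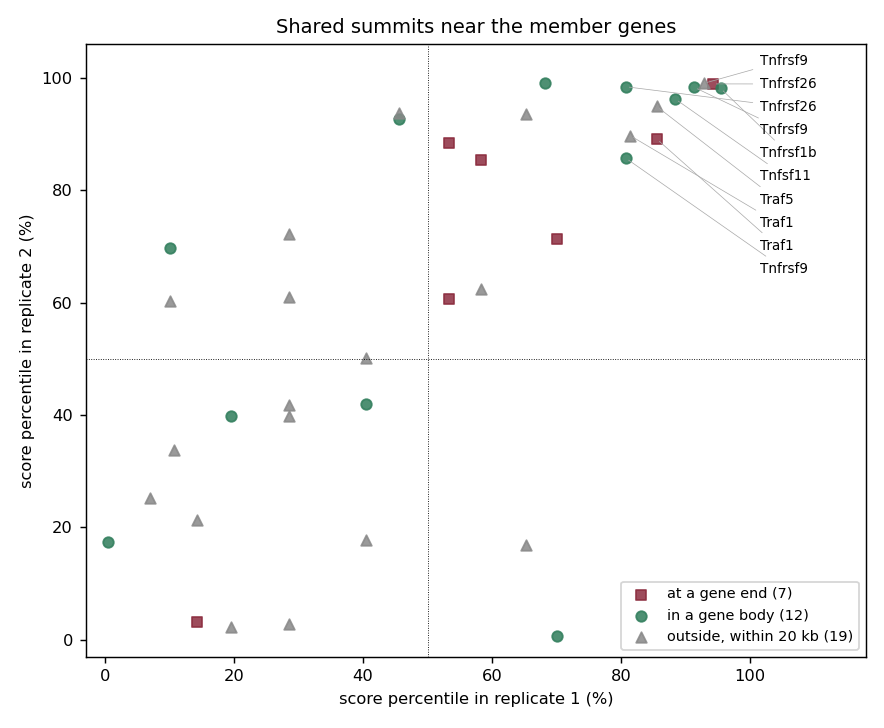
Percentile (%) of each of the 38 shared summits within the scores of replicate 1 (horizontal axis) and of replicate 2 (vertical axis), with squares for summits at gene ends, circles in gene bodies and triangles outside genes within 20 kb; dotted lines mark the medians of the lists. Summits by Tnfrsf1b, Tnfrsf9, Tnfrsf26, Tnfsf11, Traf1 and Traf5 lie in the upper right corner, and 19 of the 38 lie above the median of replicate 1.

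Ranked within their own lists, 19 of the 38 shared summits lay above the median score of replicate 1 and 24 above that of replicate 2. The median percentiles of the 38 were 49.4 in replicate 1 and 66.1 in replicate 2. For all 7720 shared summits they were higher, 58.3 and 81.2. The end summits of Traf3ip2 (14.3rd and 3.26th percentile) and the flanking summit of Traf3 (19.6th and 2.33rd) were low in both. The strong summits were those of Tnfrsf1b (95.4th and 98.1st), Tnfrsf26 (94.2nd and 98.9th) and the 2 strongest of Tnfrsf9 (92.8th and 99.0th for the upstream one, 91.3rd and 98.3rd for the body).

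A pair of further lists of the pathway was set beside these genes, also chosen with earlier results known. Of 15 superfamily genes with other symbols, such as Fas, Cd40 and Cd27, 1 had a shared end summit (6.67%), none had a body summit and 6 had any within 20 kb. The counts at ends and within 20 kb are near the shares of coding genes, 8.94% and 34.3%. In bodies the share of coding genes was 12.9%, and the 14 genes of this list with a body are too few to give a rate. Cd40lg, Eda2r and Eda of this list, and Ikbkg of the signalling genes below, lie on the X chromosome, which the shares of coding genes leave out. The end summits were at Lta, which encodes lymphotoxin alpha and lies beside Tnf and Ltb on chromosome 17, with scores of 25.3 and 23.5 at position 35205718, 140 bp outside the gene. Within 20 kb, Ltb had 6 shared summits and Lta and Tnf had 5 each, and these windows overlap. Of 29 signalling genes downstream of the receptors, 4 had a shared end summit (13.8%), 11 a body summit (37.9%) and 22 any within 20 kb (75.9%), against 8.94%, 12.9% and 34.3% of coding genes. These shares were not matched for gene length and were not counted again under the other settings. Nfkb1, the gene of the NF-kappaB subunit p50 and its precursor, had 3 shared summits in its body, and Map3k14, the kinase of the alternative pathway, had 2. The end summits were at Nfkbie, an NF-kappaB inhibitor gene (15.7 and 23.5), Birc3, a ubiquitin ligase gene (13.2 and 9.84), Rnf31, a subunit gene of the linear ubiquitin ligase (5.10 and 7.15), and Otulin, the gene of the enzyme that removes linear ubiquitin.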

How the data were processed

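KAP1 ChIP-seq summits of 2 samples were used. The submitters' processing notes name MACS2 2.2.1, Bowtie2 2.2.9 and Picard 2.1.1, and build mm10. For settings, control and calling threshold, nothing was given in the sources used here. The deposited score is a −log10 p-value or q-value, with no record of which, and its use was limited to ranks within a list. Depth is not recorded, so no interval for it is given, and differences between the lists may come from depth or threshold.

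Gene positions, and strand and promoters where listed, came from RefSeq tables of GRCm38.p6, which has the chromosome coordinates of mm10. No genome sequence was used. Summits were paired within 200 bp, gene ends were 1000 bp and windows 20000 bp (Python 3.11.15, pandas 2.3.3, numpy 2.4.6). The counting was tested on simulated summits. The 41 genes, the other lists, the motifs and the alternatives were chosen with earlier results of these data known. Named genes are those with a shared summit, all receptors of chromosome 4, and up to 10 genes with summits of 1 replicate only, by score at an end or in the body. Others were named after their values were seen. Length classes, strand, promoter and density counts, and the omission of the 3 TRAF3-interacting genes, were added after the data were seen.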

Additional observations from a re-analysis of the deposited data

How the results depend on the processing

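Counts were repeated with other settings, and a count is called moved when it differed by more than 1.5 times. With scores at or above the median of each list, 12 genes had a shared summit within 20 kb, with 17 summits in all, 5 by the chromosome 4 receptors and 3 by Tnfrsf9. With replicate 2 reduced to its 8862 highest scores, 2 genes had a shared end summit (4.88%, against 4.02% of coding genes, so the larger share at ends was lost), 9 had any within 20 kb, and there were 13 summits in all, 4 by the chromosome 4 receptors and 3 by Tnfrsf9. The share of all coding genes also fell under these settings, to 23.0% and 18.7% within 20 kb. With ends of 500 bp, 4 genes had an end summit, against 6.18% of coding genes. With 1 replicate left out, so that the other list stands alone, end genes ranged from 7 to 11, body genes from 9 (22.0%, against 13.8% of coding genes) to 26 (63.4%, against 56.4%), genes within 20 kb from 23 to 40, summits from 48 to 149, those of chromosome 4 receptors from 17 to 31 and those of Tnfrsf9 from 10 to 12, the higher value being that of replicate 2 in each case. Shared distances of 50 and 500 bp, ends of 2500 bp, windows of 10 and 50 kb, merging of summits within 1000 bp and omission of the 3 TRAF3-interacting genes moved no count by more than 1.5 times. The cause of the moved counts was not tested beyond the fewer or more summits that each setting leaves. No paired analysis was possible because the input samples have no list here and the 2 KAP1 samples form 1 group.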

Other observations

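Replicate 1 summits near the 41 genes lacked a replicate 2 partner in 10 of 48 cases (20.8%), against 12.9% of all replicate 1 summits. Of these 10, 6 lay within 20 kb of receptor genes of chromosome 4, with 4 by Tnfrsf9 and 2 by Tnfrsf4 and Tnfrsf18. Several were nearest to another gene, Park7 by Tnfrsf9, and Sdf4 and Ttll10 by Tnfrsf4 and Tnfrsf18. The scores of the 10 ran from 2.31 to 7.25. From the other side, 111 of 149 replicate 2 summits near the 41 genes had no replicate 1 partner (74.5%), against 90.3% of all replicate 2 summits. The strongest of these outside the genes, at position 111280499 of chromosome 12, lay 13344 bp from Traf3 and 4073 bp from Amn, with a score of 52.8, and it had no replicate 1 summit within 200 bp.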
